A study of Mus musculus with 6 samples.

Results

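The genes described here encode the proteins of the cytosolic ribosome, in mouse ear skin with and without a keratinocyte deletion of Ufl1. They were taken from the deposited table as the protein-coding rows whose symbol is Rpl or Rps followed by a number (with an optional a, l or x), or Rplp0, Rplp1, Rplp2 or Rpsa. This name rule found 80 genes among 54532 rows, 31 for the small (40S) subunit and 49 for the large (60S) subunit. It leaves out 7 ribosomal protein genes with other names, among them Rps3a1, Fau and Rack1. All 6 libraries came from ear skin of mice aged 3 months, 3 libraries per genotype. The controls were Ufl1 f/+ or Ufl1 f/f, with no statement of which library had which, and are called wild type in the design text. The conditional knockout (cKO) mice were Ufl1 f/f with KRT14Cre/+, which expresses Cre from the promoter of keratin 14, a gene of basal keratinocytes, so that epithelia formed by them lose Ufl1. No control carried Cre, so effects of Cre and of Ufl1 loss cannot be told apart. Dermis, cartilage, muscle and other tissue of the ear keep Ufl1, and in such bulk samples fewer cells of a type and less RNA per cell cannot be told apart. Whether each library is a different animal is not stated, and the p-values therefore reflect only how far these samples differ among themselves.

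Each cytosolic ribosome carries 1 copy of nearly every ribosomal protein, and the genes are expressed at high levels in growing tissue. Most of their mRNAs start with a pyrimidine stretch (the TOP motif) through which translation follows growth signals. UFL1 is the ligase of the small ubiquitin-like protein UFM1, and its best-known substrate is RPL26, which sits beside the tunnel where the nascent chain leaves the 60S subunit and is modified on ribosomes docked at the endoplasmic reticulum. RNA counts give the level of Rpl26 mRNA and do not measure that modification.

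Ribosomal protein genes have many processed copies in the mouse genome, and a short read can match several of them. The GENCODE vM21 transcripts (GRCm38) of genes other than the members were searched for copies. A copy had at least 95% identity over at least 50% of a member's coding sequence. Only pseudogenes and genes whose transcripts all have 1 exon were kept, each assigned to the member it matched best. This gave 563 genes, of which 542 are annotated as pseudogenes, a share that the filter itself favours. At least 1 such copy was found for 75 of the 80 members. The 4 pairs printed here show how few bases separate a member from an expressed copy. Each line gives 45 bases of coding sequence, 5′ to 3′ on the coding strand, with the differing bases in capitals, and positions count from 1 at the A of the start codon. The Rps10 pair spans positions 371 to 415, the Rpl34 pair 110 to 154, the Rps7 pair 4 to 48 and the Rpl26 pair 155 to 199.
Rps10: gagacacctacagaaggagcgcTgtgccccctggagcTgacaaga
Rps10-ps2: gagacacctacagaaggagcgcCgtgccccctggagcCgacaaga
Rpl34: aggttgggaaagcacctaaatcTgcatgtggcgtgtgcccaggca
Rpl34-ps1: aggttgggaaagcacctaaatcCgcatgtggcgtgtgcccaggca
Rps7: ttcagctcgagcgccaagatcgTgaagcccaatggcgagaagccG
Gm6472: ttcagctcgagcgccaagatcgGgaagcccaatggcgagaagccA
Rpl26: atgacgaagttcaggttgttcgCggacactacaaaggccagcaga
Gm15772: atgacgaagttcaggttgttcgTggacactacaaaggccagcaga
Over the whole aligned coding sequence, Rpl34-ps1 differed from Rpl34 by T132C and C318G, and Gm15772 differed from Rpl26 by C177T and T288C. Gm6472 differed from Rps7 by T26G, G48A and G123T, and Rps10-ps2 from Rps10 by T393C, T408C, C437G, A438G and G473A. The copies lie apart from their members: Rpl34-ps1 is on chromosome 6, 71124610 to 71124963, Gm6472 on chromosome X, 152909505 to 152910155, Rps10-ps2 on chromosome 16, 20822145 to 20822640, and Gm15772 on chromosome 5, 3236431 to 3236868 (mm10).

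The promoters of 4 members are shown as examples, and no link between promoter sequence and RNA level was tested. Each line gives 60 bases before to 30 bases after the RefSeq transcription start (GRCm38.p6), 5′ to 3′ on the strand of the gene, with matches to 3 motifs on either strand in capitals. The motif CGGAAG is the core bound by ETS factors, TCGCGA is the centre of a palindrome found in many housekeeping promoters, and CTTTCC is one form of the pyrimidine start. The windows are chr11:68901506-68901595 (plus strand) for Rpl26, chr4:86857338-86857427 (minus) for Rps6, chr17:27635215-27635304 (minus) for Rps10 and chr3:90213619-90213708 (minus) for Rps27.
Rpl26: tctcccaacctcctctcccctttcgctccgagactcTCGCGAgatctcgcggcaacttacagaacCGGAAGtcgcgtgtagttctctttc
Rps6: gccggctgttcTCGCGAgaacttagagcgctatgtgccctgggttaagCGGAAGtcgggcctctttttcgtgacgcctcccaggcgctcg
Rps10: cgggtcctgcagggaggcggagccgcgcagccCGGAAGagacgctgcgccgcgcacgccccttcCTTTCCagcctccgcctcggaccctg
Rps27: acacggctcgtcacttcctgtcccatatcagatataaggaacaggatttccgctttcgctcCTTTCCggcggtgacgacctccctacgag
Of the 80 members, 60 matched the RefSeq promoter table, whose windows run from 250 bases before to 50 after the start. CGGAAG was present in 41 of these 60 windows (68.3%), against 24.2% of the windows of 16497 coding genes. TCGCGA was present in 13 of 60 (21.7%) against 3.93%, and CTTTCC in 32 of 60 (53.3%) against 29.2%. Both strands were searched over the whole window, so a CTTTCC match need not be a pyrimidine start. Neighbouring matches may share an end base, and a match is only a match of letters.

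Total counts ranged from 17256339 to 20776539 per library. Ufl1 was measured at 57.9, 47.0 and 46.1 CPM (counts per 1e6 counts, scaled by TMM) in the respective controls 1, 2 and 3, against 34.9, 35.6 and 38.8 CPM in cKO 1, 2 and 3. All cKO libraries were below all controls (log2 fold change -0.47, SE 0.14, edgeR adjusted p = 0.778). An exact two-sided permutation test gave p = 0.1, the smallest that 3 against 3 allows. Markers of skin were present in every library, with Krt14 at 1160 to 4560 CPM and Krt10 at 3450 to 5760 CPM, and the summed level of 8 skeletal muscle markers at 2730 to 8790 CPM and of 7 cartilage markers at 893 to 1830 CPM. For keratinocytes and fibroblasts, though not for every marker list, the controls stood further apart than the cKO libraries. The 12 keratinocyte markers summed to 8770, 21000 and 12300 CPM in controls and to 16700, 13000 and 15300 CPM in cKO. The 7 fibroblast markers summed to 25800, 9850 and 16000 CPM in controls and to between 20800 and 22100 CPM in cKO.

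As a group the ribosomal protein genes were close to their control level in the cKO skin. Of 80 members, 79 had enough counts to be tested, and Rpl10l, a testis paralog of Rpl10, had 0 counts in all 6 libraries. No member passed an adjusted p of 0.05 in edgeR's quasi-likelihood test (background 0.0173% of 17318 genes) or in DESeq2 (0.526%), and the authors' deposited table gives none either (0.45%). The smallest adjusted p among members was 0.811 in edgeR and 0.217 in DESeq2, both for Rps29. The median log2 fold change of the members was 0.14, a fold of 1.1, against -0.01 over all genes tested. A positive value was found for 57 members and a negative one for 22, where 47.8% of all genes were positive, and 67 members lay within 0.3 of no change. At an unadjusted p under 0.05, edgeR gave 2 higher members, Rps29 and Rpl24 (background 3.38%), and 1 lower, Rpl21 (1.95%). DESeq2 gave 6 members at that level, 5 of them higher (5.85% in both directions). All cKO libraries exceeded all controls for 10 of 79 members (background 5.73%) and lay below them for 1 (4.81%). Among the 73 members at 100 CPM or more these counts were 9 and 1, and among 2084 other genes at that level 154 and 55.

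**Figure D1:**
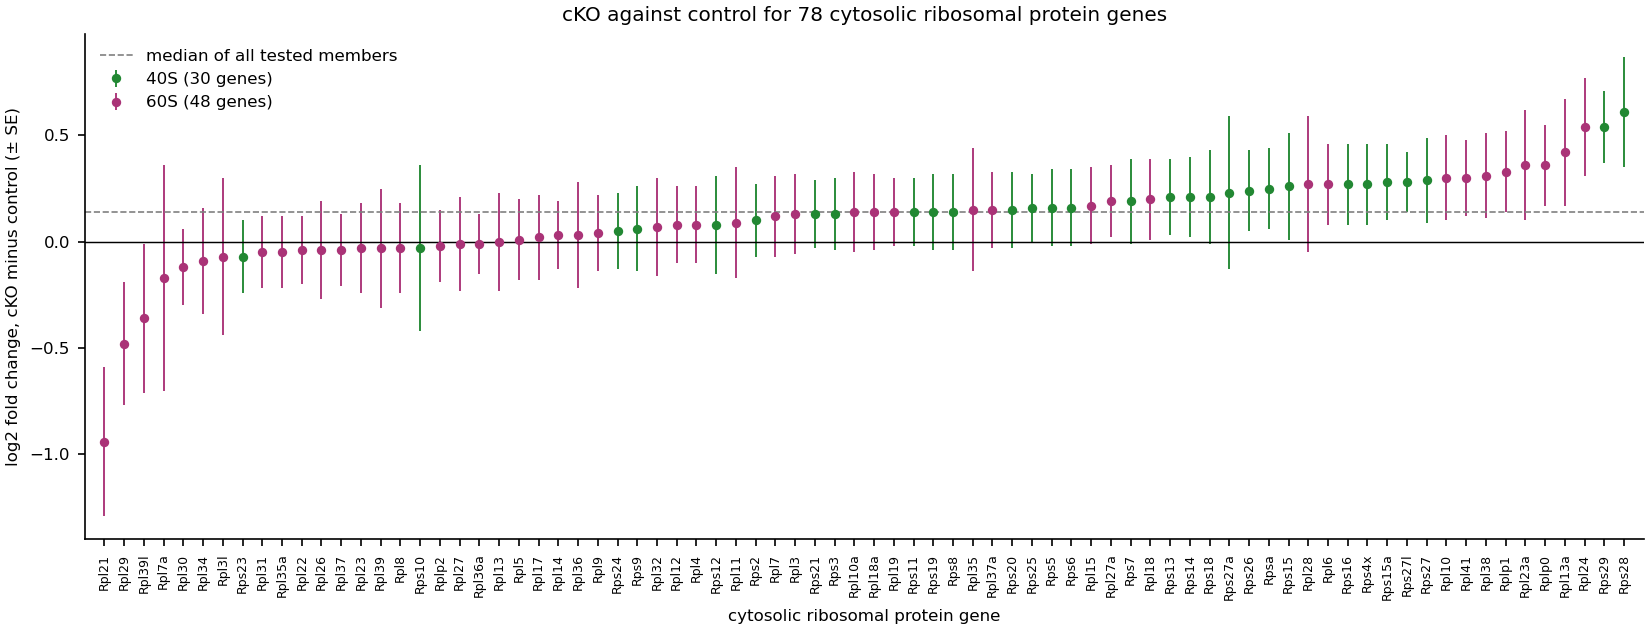
Log2 fold change of cKO against control (y axis, point ± SE, n = 3 libraries per group) for 78 of the tested ribosomal protein genes in rising order (x axis), coloured by subunit; the dashed line is the median of all 79. The values run from -0.94 (Rpl21) to 0.61 (Rps28), with most points between 0 and 0.3 and the SE bars of many of them reaching 0.

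By subunit, the 31 genes of the 40S subunit had a median log2 fold change of 0.16, with 28 positive, and the 48 tested genes of the 60S subunit a median of 0.06, with 29 positive. The summed counts of 60S genes were 1.3, 1.39 and 1.34 times those of 40S genes in the 3 controls against 1.29, 1.27 and 1.29 times in the 3 cKO libraries. The cKO ratios lay just below the lowest control. This is a description of sums over genes and was given no test.

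The small shift of the group was no larger than the differences between libraries of 1 genotype. Members held 5.14%, 6.14% and 5.05% of the counts in the 3 controls against 5.73%, 5.64% and 6.40% in the 3 cKO libraries, so that control 2 was above cKO 1 and cKO 2. The means were 5.45% ± 0.604 in controls and 5.92% ± 0.413 in cKO (SD, n = 3). The members rose and fell together by library: of 79 members, 57 were above their own mean over the 6 libraries in control 2 and 73 in cKO 3, but 6 in control 3 and 29 in control 1. The highest library was cKO 3 for 38 members and control 2 for 26, and the lowest was control 3 for 37 and control 1 for 27. The median log2 deviation of the members was -0.09, 0.12 and -0.19 in controls and 0.03, 0.02 and 0.16 in cKO. Without control 2 the median log2 fold change of the group was 0.22, with 69 positive members, without control 3 it was 0.06, with 49, and without control 1 it was 0.09, with 57. Without cKO 3 it was 0.08, with 54.

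Other measures also differed between libraries. A score of 7 proliferation markers (mean log2 deviation) was -0.44, 0.56 and -0.33 in controls and 0.17, -0.33 and 0.37 in cKO, highest in control 2 and cKO 3 as the members were. The score was equal in control 3 and cKO 2, where the median deviations of the members were -0.19 and 0.02. Control 1 also had the highest share of counts in mitochondrial transcripts, 4.59% against 2.28% to 2.97% in the other 5 libraries, and its part in the values of control 1 was not tested. The deviations in control 1 also went with base composition. Across 79 members, the deviation in control 1 had a Pearson correlation of -0.37 with the GC content of the transcript, and across 14153 other coding genes one of -0.41. The genes share each library, so this is a description. In control 1 the median deviation was 0.05 for the 27 members with the lowest GC (41.3% to 49.2%) and -0.25 for the 26 with the highest (53.3% to 62.4%). Control 2 went the other way, with correlations of 0.27 and 0.23. With a GC term for each library, an alternative chosen after seeing the data, the median log2 fold change of the members was 0.08. That of all genes was -0.05. Their part in the result was otherwise not tested.

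**Figure D2:**
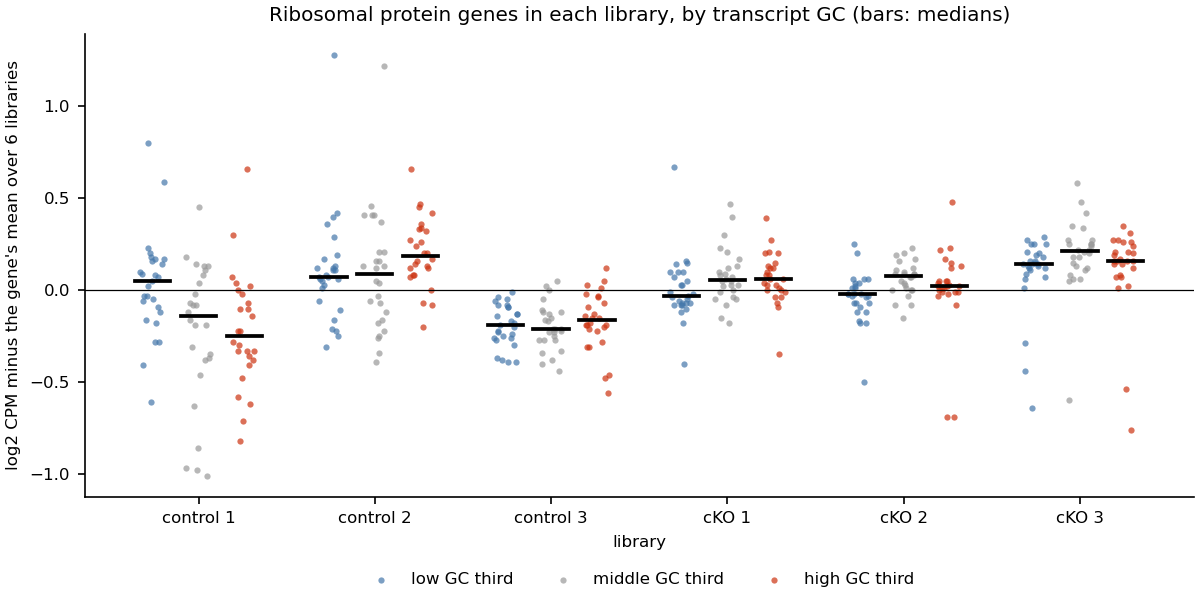
Deviation of each of 79 members from its own mean over 6 libraries (y axis, log2 CPM) in each library (x axis), split into 3 classes of transcript GC content; points are genes and black bars are class medians. Control 3 is low and cKO 3 is high in all 3 classes, while control 1 steps down from 0.05 in the low to -0.25 in the high class.

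Rpl26, the UFM1 acceptor (chromosome 11, 68901583 to 68906989, plus strand, mm10), did not stand apart by genotype. It was measured at 1230, 791 and 743 CPM in controls and at 865, 848 and 980 CPM in cKO. Control 1 was the highest of the 6, controls 2 and 3 were the lowest, and the cKO libraries lay between them. The log2 fold change was -0.04 (SE 0.23, 95% interval -0.57 to 0.5, edgeR adjusted p = 0.997), and the exact two-sided permutation p was 1. Without control 1 it was 0.22 (SE 0.16, edgeR adjusted p = 0.631). Its copies, Gm15772 among them, held 5.96% of the counts of the family, and adding them left the log2 fold change at -0.04.

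The other proteins at the exit of the nascent chain tunnel, where targeting and processing factors dock, are encoded by Rpl17, Rpl19, Rpl23a, Rpl31, Rpl35 and Rpl39. None of the 6 passed the test, and their median log2 fold change was 0.08. Rpl39, which lines the tunnel, was measured at 1180, 662 and 605 CPM in controls and 769, 694 and 935 CPM in cKO, the same order of libraries as for Rpl26. Rpl23a, part of the docking site of the signal recognition particle, was at 173, 360 and 315 CPM in controls and 365, 348 and 372 CPM in cKO. Control 1 was the single low library, and control 2 lay between the cKO values. Rpl35 showed the same low control 1, at 226 CPM against 403 to 546 CPM in the other 5 libraries. The log2 fold changes were 0.02 for Rpl17, 0.14 for Rpl19, 0.36 for Rpl23a, -0.05 for Rpl31, 0.15 for Rpl35 and -0.03 for Rpl39. Without control 1, Rpl23a was at 0.09, Rpl35 at -0.13 and Rpl39 at 0.33.

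Rpl5 and Rpl11, which with 5S RNA form the particle that binds MDM2 when ribosome assembly fails, had log2 fold changes of 0.01 (SE 0.19) and 0.09 (SE 0.26). Rpl11 was at 409, 846 and 633 CPM in controls and at 646, 676 and 686 CPM in cKO, so the cKO values sat within the span of the controls.

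The P stalk, which recruits elongation factors, is built from Rplp0, Rplp1 and Rplp2. Rplp0 was at 2440, 2550 and 2370 CPM in controls and at 3220, 2910 and 3300 CPM in cKO, with every cKO library above every control. Its log2 fold change was 0.36 (SE 0.19, 95% interval -0.09 to 0.8, edgeR adjusted p = 0.97, DESeq2 adjusted p = 0.318). Rplp1 was at 1630, 2010 and 1760 CPM in controls and 2160, 2200 and 2430 CPM in cKO (log2 fold change 0.33, SE 0.19), again without overlap. Rplp2 was at 421, 539 and 407 CPM in controls and 428, 441 and 477 CPM in cKO (log2 fold change -0.02, SE 0.17), with full overlap. The copies of Rplp0 held 0.32% of the family's counts and those of Rplp1 1.9%.

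Mutations of 5 of the members are known to darken or spot the skin or coat of mice. Rps19 and Rps20 are mutated in dark skin mice, loss of 1 Rps6 allele in keratinocytes has a like effect, Rpl24 is mutated in belly spot and tail and Rpl27a in sooty foot ataxia. Each of the 5 had a log2 fold change above 0, the median being 0.16, which is also the median of the 40S genes, and 57 of all 79 members were positive. Rps19 was at 691, 827 and 608 CPM in controls and 741, 768 and 827 CPM in cKO (log2 fold change 0.14, SE 0.18). Rps20 was at 860, 1040 and 841 CPM and 981, 965 and 1100 CPM (0.15, SE 0.18). Control 2 was at or within the top of the cKO range for both. Rps6 (0.16, SE 0.18) and Rpl27a (0.19, SE 0.17) overlapped between groups as well. In the same libraries, markers of melanocytes summed to 73.0, 64.3 and 81.0 CPM in controls and 187, 207 and 277 CPM in cKO.

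**Figure D3:**
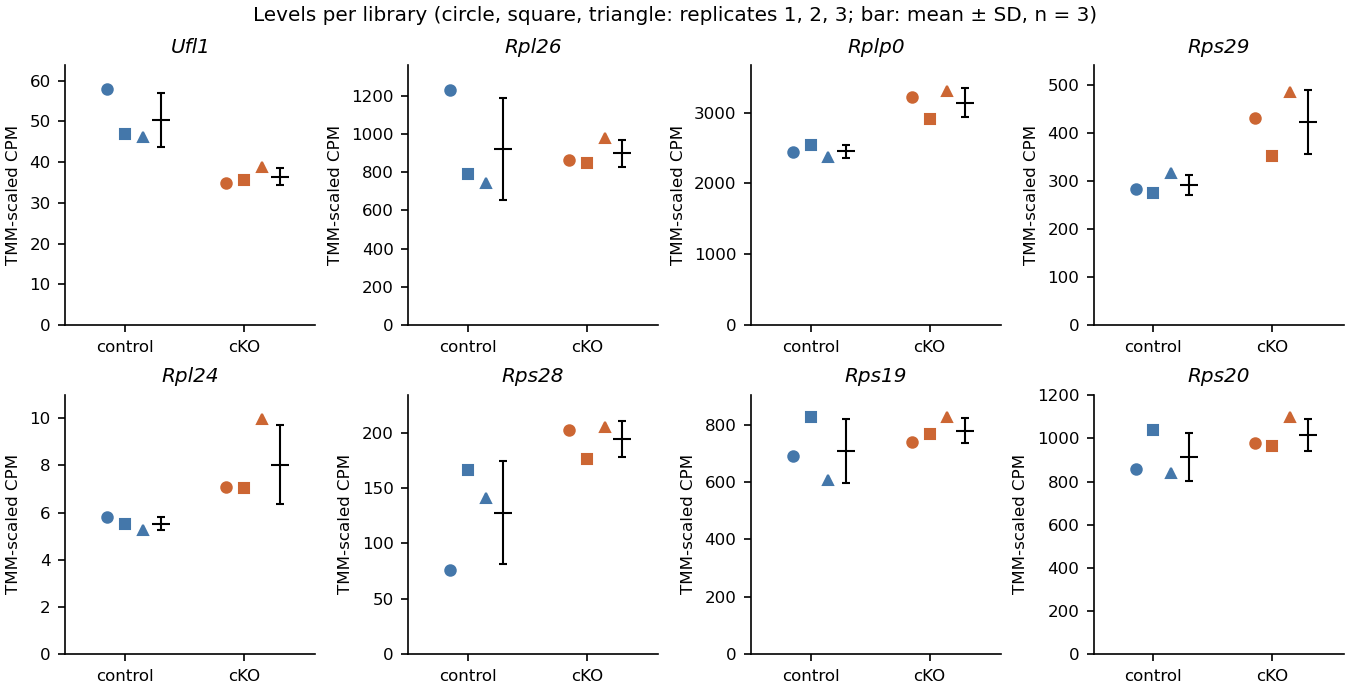
TMM-scaled CPM (y axis, from 0) of Ufl1 and 7 ribosomal protein genes in the 3 control and 3 cKO libraries (x axis); symbols mark replicates 1 to 3 and bars the mean ± SD. Ufl1 is lower in every cKO library, Rplp0, Rps29, Rpl24 and Rps28 are higher in every cKO library, and Rpl26, Rps19 and Rps20 overlap.

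Rpl24 is a special case among these. It was measured at 5.79, 5.52 and 5.24 CPM in controls and at 7.08, 7.05 and 9.95 CPM in cKO, without overlap (log2 fold change 0.54, SE 0.23, unadjusted p = 0.0443, edgeR adjusted p = 0.917). Of the 60S genes, Rpl39l had a lower mean in both groups, and Rpl13a was at 11.3 to 21.2 CPM. With its 3 copies, which held 65.3% of the family's counts, it was at 16.6, 19.5 and 17.3 CPM in controls and 19.0, 18.2 and 26.5 CPM in cKO, now overlapping, and the log2 fold change was 0.26 (SE 0.19). Without cKO 3, Rpl24 alone was at 0.36. Rpl24 also shares 47.0% of its exonic bases with Gm28037, a gene on the same strand with 0 counts. The part of this overlap in the counts of Rpl24 was not tested.

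Rps29 and Rps28, small proteins of the 40S subunit, had the largest positive changes of that subunit. Rps29 was at 283, 276 and 316 CPM in controls and 431, 353 and 486 CPM in cKO, with all cKO libraries higher. Its log2 fold change was 0.54 (SE 0.17, 95% interval 0.15 to 0.92, unadjusted p = 0.0123, edgeR adjusted p = 0.811). It was 0.55 with its copies added and 0.48 with the GC term. Rps28 was at 75.9, 166 and 141 CPM in controls and 202, 176 and 205 CPM in cKO, with control 1 the lowest library. The log2 fold change of Rps28 was 0.61 (SE 0.26, edgeR adjusted p = 0.933), 0.41 with its copies added and 0.33 without control 1. The other members without overlap on the higher side were Rpsa, Rps25, Rps27l, Rpl38 and Rpl41, with log2 fold changes of 0.16 to 0.31. Rps27l, a paralog of Rps27 induced by p53, was at 142, 128 and 107 CPM in controls and 148, 159 and 151 CPM in cKO (0.28, SE 0.14, edgeR adjusted p = 0.958).

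Of the 22 members with a negative log2 fold change, Rpl21, Rpl29, Rpl39l and Rpl30 had the smallest unadjusted p in edgeR. Rpl21 was at 132, 332 and 134 CPM in controls and 104, 97.2 and 112 CPM in cKO. All cKO libraries were below all controls, and control 2 was far above the other 5. Its log2 fold change of -0.94 (SE 0.35) did not pass the test (unadjusted p = 0.0273, edgeR adjusted p = 0.857). Without control 2 it was -0.35. Rpl21 has 54 copies, which held 52.5% of the family's counts, and the summed family was at 197, 533 and 326 CPM in controls and 275, 294 and 294 CPM in cKO. With the copies added the groups overlapped and the log2 fold change was -0.29 (SE 0.32). Rpl29 was at 408, 444 and 362 CPM in controls and at 437, 206 and 229 CPM in cKO (-0.48, SE 0.29), so cKO 1 was at the control level and the other cKO libraries below it. Leaving out cKO 1 gave -0.90, cKO 2 -0.29 and cKO 3 -0.33. Rpl39l (-0.36, SE 0.35) and Rpl30 (-0.12, SE 0.18) overlapped between groups.

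Several members varied more within a genotype than between genotypes. The ratio of the highest to the lowest library had a median of 1.48 over 79 members and was 2 or more for 14 of them. Rpl7a was at 43.9, 200 and 68.0 CPM in controls and 119, 101 and 56.9 CPM in cKO, a ratio of 4.56. Rps27a, which encodes a fusion of ubiquitin to a 40S protein, was at 323, 646 and 466 CPM in controls and 780, 585 and 316 CPM in cKO, with the highest and the lowest library both in cKO. Rpl3l, the muscle paralog of Rpl3, was at 43.8, 26.3 and 20.1 CPM in controls and 30.8, 38.6 and 16.3 CPM in cKO. The summed skeletal muscle markers stood in the same order of libraries, at 8790, 4370 and 3960 CPM and 5870, 7380 and 2730 CPM. Rpl39l, a testis paralog of Rpl39, was at 3.14 to 7.58 CPM.

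For some members, the counts of the gene and of a copy went in opposite directions between libraries. Rpl34 was at 569, 637 and 589 CPM in controls and 654, 353 and 680 CPM in cKO, with cKO 2 alone low. Its copy Rpl34-ps1 had 6396 counts in cKO 2, while the remaining libraries had 272 to 427. The sum of Rpl34 and its copies was 589, 663 and 614 CPM in controls and 681, 716 and 706 CPM in cKO. The ratio of highest to lowest library thus went from 1.93 for Rpl34 alone to 1.22 for the family, and the log2 fold change from -0.09 (SE 0.25) to 0.17 (SE 0.15, edgeR unadjusted p = 0.282), with all cKO families above all controls.

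The same held for Rps7 and Rpl3. Rps7 was at 1050, 938 and 1150 CPM in controls and 982, 1200 and 1410 CPM in cKO, while its copies summed to 550, 384 and 173 CPM and 442, 187 and 211 CPM. The ratio of highest to lowest went from 1.51 to 1.23 with the copies added, and the log2 fold change from 0.19 to 0.06. For Rpl3, whose copy Rpl3-ps1 had 1014 to 3559 counts, the ratio went from 1.4 to 1.25. Rps27 went the other way. Its copy Rps27rt, with an identical coding sequence, had 10531 counts in control 1 against 2198 to 4898 in the other libraries, and the ratio went from 1.66 to 1.87. The log2 fold change of Rps27 was 0.29 alone and 0.02 with its copies. Over all 75 members with a copy, the ratio was lower with the copies added for 30. Copies held 10% or more of the family's counts for 26 members and 50% or more for 5. With copies added throughout, the median log2 fold change of the members stayed at 0.14. Alignment settings for reads with several matches are missing from the sources used here, and which gene of a family such counts came from was not tested.

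**Figure D4:**
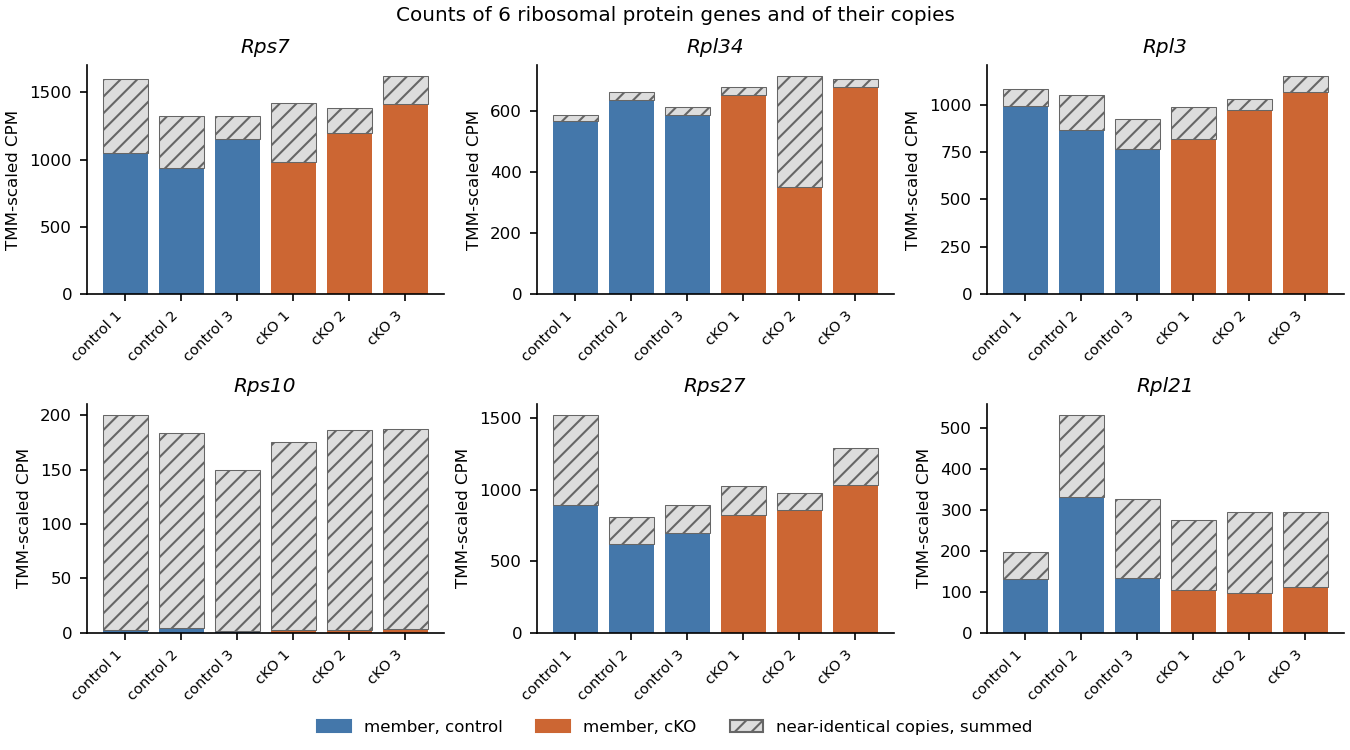
TMM-scaled CPM (y axis, from 0) of 6 ribosomal protein genes (solid bars) with the sum of their near-identical copies stacked on top (hatched) in each library (x axis). The stacked Rpl34 bars are nearly level although the gene alone drops to 353 CPM in cKO 2, and nearly all counts of the Rps10 family lie in its copies.

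Levels per length spanned a wide range. The mean deposited FPKM (fragments per kilobase of exonic length per 1e6 fragments) over the 6 libraries had a median of 349 over members, 421 for 40S and 282 for 60S genes. Rplp1 was the highest at 3250 to 4850 FPKM, and its range did not touch that of Rplp0 at 1420 to 1990 FPKM. Rpl36 followed in the 60S subunit with a mean of 1130 FPKM and a range of 744 to 1520 FPKM, which overlapped that of Rplp0. Rplp2, of the same P stalk as Rplp0 and Rplp1, had a mean of 216 FPKM, below the median of the 60S genes. In the 40S subunit the highest means, Rps14 at 1100, Rps4x at 929 and Rps15 at 915 FPKM, overlapped in range. FPKM depends on the exonic length used: Rps24 had a mean of 161 FPKM over an exonic length of 6256 bases, but its coding transcript is 519 bases long, which gives 1960 CPM per kilobase.

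Only 5 tested members had a mean under 20 FPKM. Rpl39l (5.36) and Rpl3l (17.7) are the tissue-restricted paralogs, and Rps10 (1.22), Rpl24 (6.53) and Rpl13a (8.14) are core proteins. These last 3 are also the members that share 20% or more of their exonic bases with another gene annotated on the same strand: Rpl24 shares 47.0% with Gm28037, Rpl13a 29.4% with Gm45713 and Rps10 20.5% with RPS10-NUDT3. Those 3 overlapping genes had 0 counts in all 6 libraries. Among the other members only Rpl19 shared any, at 3.52%. Rps10 was at 1.94 to 4.38 CPM, and its copies, which held 98.4% of the family's counts, brought the family to 150 to 200 CPM. The counting rule for reads that fall on overlapping genes does not appear in the sources used here, and its part in these levels was not tested. Rps15a (115) and Rps28 (109) were the next lowest of the 40S subunit.

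**Figure D5:**
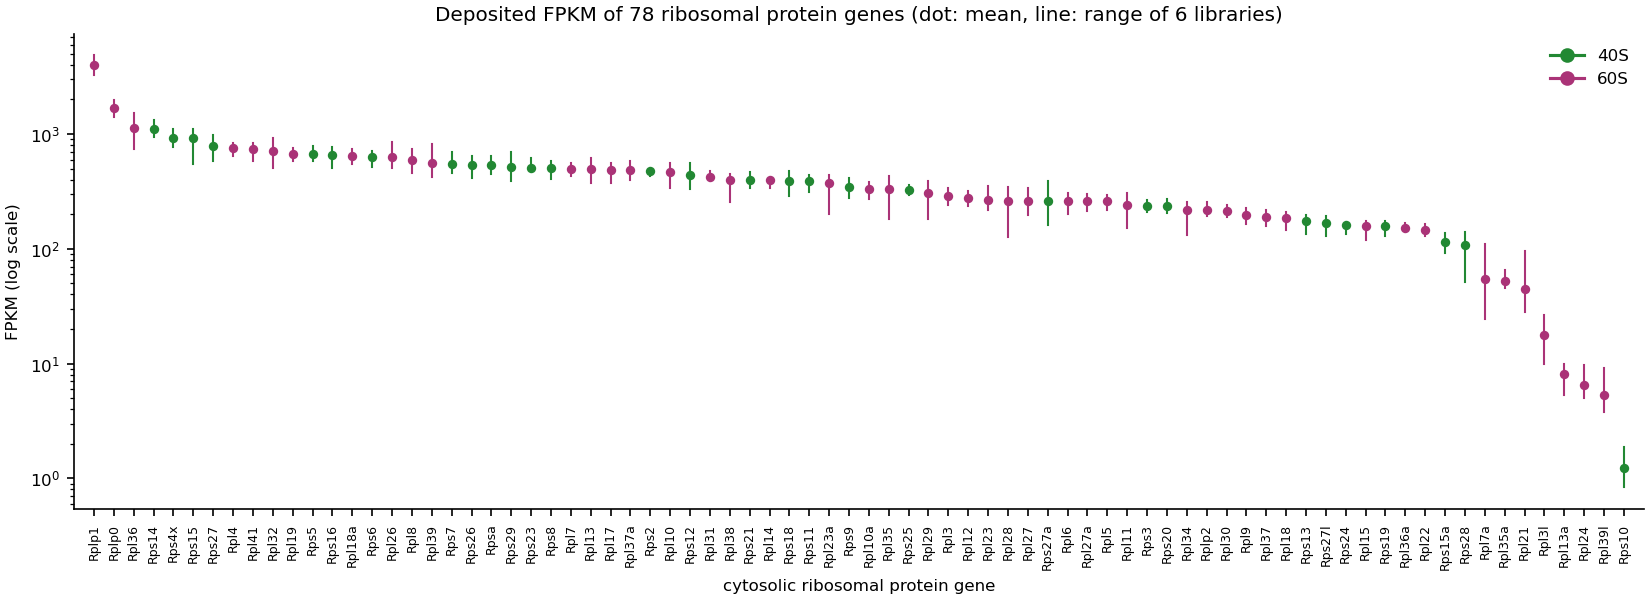
Deposited FPKM (y axis, log scale) of 78 ribosomal protein genes in falling order (x axis), coloured by subunit; dots are means and lines span the 6 libraries. Most genes lie between about 100 and 1000 FPKM, Rplp1 stands above them at a mean of 4030, and Rps10 is lowest at 1.22.

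Genes that work with the ribosome were compared in the same fit, and none passed the adjusted threshold in edgeR in any of the lists given here. The 7 ribosomal protein genes outside the name rule had a median log2 fold change of 0.10. Rack1, a scaffold on the 40S subunit, was at 1190, 1190 and 1030 CPM in controls and 1460, 1340 and 1580 CPM in cKO, without overlap (0.36, SE 0.18, edgeR adjusted p = 0.953).

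Among 20 translation elongation and other genes with TOP mRNAs the median was 0.07, and 1 was higher at an unadjusted p under 0.05 (background 3.38%). This was Eef1g, a subunit of the elongation factor that recharges eEF1A, at 315, 364 and 311 CPM in controls and 567, 500 and 517 CPM in cKO. Every cKO library was above every control (0.68, SE 0.15, unadjusted p = 0.00197, edgeR adjusted p = 0.529). DESeq2 called Eef1g (background 0.526% in both directions). Of 28 initiation factors (median 0.07) and 48 ribosome biogenesis genes (median 0.03), 0 passed the unadjusted p in edgeR in either direction. The background at that p was 3.38% higher and 1.95% lower.

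In the UFM1 pathway, 10 genes had a median of 0.01. Of 18 genes for quality control of stalled ribosomes (median 0.06), only Ascc3, a helicase that splits collided ribosomes, passed the unadjusted p (0.38, SE 0.15). The 77 tested mitochondrial ribosomal protein genes, which encode a separate ribosome, had a median of 0.01 with 44 positive. Of these 77, 1 passed the unadjusted p, Mrps18b (0.52, SE 0.18). For both lists the background at that p was 3.38% higher and 1.95% lower.

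For 16 targets of p53 the median was 0.15, 12 being positive and 3 higher at an unadjusted p under 0.05. Cdkn1a, which halts the cell cycle, was at 166, 192 and 205 CPM in controls and 293, 255 and 252 CPM in cKO (0.51, SE 0.14, edgeR adjusted p = 0.763). Psrc1 (1.14, SE 0.34) and Zmat3 (0.43, SE 0.14) were also above all controls in every cKO library. The share of genes higher at that level among all genes was the 3.38% given above.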

How the data were processed

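Total RNA of ear skin was extracted with TRIzol and made into libraries with a NEBNext Ultra kit, per the labels' protocols. The submitters' processing notes name HISAT2, HTSeq and the build mm10. Versions, strand setting and treatment of reads with several matches are not given in the sources used here. For each gene the authors deposited a whole-number count and an FPKM value for each library, per the file headers. The same deposited table holds the authors' normalized mean count per group (a signal value, not used in a test), their log2 fold change and their p-value and adjusted p-value.

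Counts were scaled by TMM and tested in all 17318 genes that passed filterByExpr (99.83% to 99.86% of counts) with edgeR 4.0.16 (quasi-likelihood, robust, R 4.3.3), Benjamini-Hochberg adjustment and a threshold of 0.05. Log2 CPM used a prior count of 2. Copies were found with blastn 2.17.0 in GENCODE vM21. GC content and transcript length came from 1 well-supported coding transcript per gene. Alternatives were other scalings and filters, DESeq2 1.42.0, limma 3.58.1 (voom, and trend on log2(FPKM + 1) or log2(FPKM + 0.1)), a replicate block, each library left out, and, chosen after seeing the data, copies added and a GC offset. The test was run on simulated data first. No 2 libraries agreed within sampling noise. Members, lists, role groups and motifs were chosen with earlier results of these data known. Named members are those of the role lists, the 5 smallest p-values in each direction, the 3 highest and 3 lowest FPKM of each subunit, the 4 largest spreads and, of each list, up to 4 with the smallest p. Other members were named after their values were seen. Some genes selected by these rules are not reported here.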

Additional observations from a re-analysis of the deposited data

How the results depend on the processing

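With 3 libraries per group, counts of calls over all genes depended strongly on the method, while the count of members called was 0 in every alternative run. edgeR called 2 genes higher and 1 lower. Without the filter it called 18 and 7, DESeq2 called 67 and 24, and limma-voom, both FPKM scales and the GC offset called 0 and 0. The replicate block called 10 and 2. Same-numbered libraries had correlations of 0.22, -0.04 and -0.04, and the other pairings -0.16 to 0.19. The sources used here do not say that the numbers pair the samples, and so few correlations cannot decide it. The median log2 fold change of members kept its sign in every alternative, from 0.06 to 0.22 with a library left out. Leaving out 1 library, genes called higher ranged from 0 to 2 and lower from 0 to 2. Sign changes are given here for the named members; others also changed sign, since 57 members were positive in edgeR, 64 under limma-voom and 69 without control 2. Under limma-voom Rpl39 was 0.01, Rps10 0.04 and Rpl7a 0.06. On log2(FPKM + 1) they were 0.03, 0.01 and 0.06, on log2(FPKM + 0.1) 0.03, 0.03 and 0.07, and with the replicate block 0.03, 0.02 and 0.04. With copies added, chosen after seeing the data, Rps10 was 0.04 and Rpl7a 0.21. Rpl17 was -0.01 and Rpl5 -0.02 under upper-quartile scaling, and -0.02 and -0.05 with the GC offset, while Rpl5 was -0.01 with total counts only. With each library left out, the range was -0.17 to 0.22 for Rpl26, -0.14 to 0.13 for Rpl17, -0.09 to 0.08 for Rpl5, -0.21 to 0.33 for Rpl39, -0.25 to 0.41 for Rps10 and -0.55 to 0.72 for Rpl7a. It was -0.13 to 0.47 for Rpl35, -0.15 to 0.36 for Rpl11, -0.36 to 0.29 for Rpl3l, -0.57 to 0.05 for Rpl39l, -0.20 to 0.33 for Rpl36 and -0.13 to 0.03 for Rpl31. It was -0.10 to 0.12 for Rplp2 and -0.08 to 0.51 for Rps27a. The cause of these changes was not tested. Members under 10 CPM, such as Rps10, Rpl24 and Rpl39l, rest on few counts.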
